A study of Saccharomyces cerevisiae with 12 samples.

Results

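The RNA polymerase I and III machinery of Saccharomyces cerevisiae was followed as 40 genes chosen by symbol: 23 polymerase subunits, 16 initiation factors and MAF1. Each of the 40 had 1 probe set among the 5498 tested, which stand for 5449 genes, and none was lost to a filter on dim signals. Messenger RNA levels were compared between H2B WT cells and cells of the H2B R95A mutant, whose histone H2B carries alanine in place of Arg95, with Affymetrix Yeast Genome 2.0 arrays in 1 colour. Exponential cultures were left untreated or were given 200 ng/ml rapamycin, a TOR kinase inhibitor, for 30 min, which gave 4 groups of 3 arrays. Per the study's strain table both strains are MATa, with mutations in HIS3, LEU2, URA3, TRP1 and LYS2. Both lack the chromosomal gene pairs for H2A and H2B, of which 1 was replaced with LEU2 and the other with TRP1. The histones come from a plasmid with a His marker, which the study's text calls single-copy. The comparisons ask which transcripts differ between the strains and after the drug.

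RNA polymerase I (Pol I) transcribes the large ribosomal RNA precursor, and RNA polymerase III (Pol III) makes tRNAs, 5S ribosomal RNA and other short RNAs. Each enzyme has subunits of its own and shares others, some with the other of the pair only and some also with RNA polymerase II (Pol II), and each is brought to its genes by dedicated initiation factors. TORC1, the rapamycin-sensitive kinase complex, couples both enzymes to nutrients, acting in part through the Pol I factor Rrn3 and through Maf1, the repressor of Pol III. The arrays measure the messenger RNAs that encode these proteins, not the activity of the enzymes.

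Signals are log2 values from robust multi-array averaging (RMA), in which every array is forced to the same distribution, so less RNA per cell and a lower share of one transcript cannot be told apart. Array medians over the tested probe sets lay between 7.25 and 7.30, and the number of arrays limits the precision. The sources used here do not say whether replicates were separate cultures, so the p-values measure the spread between arrays, which may be technical. The 4 arrays numbered 1 stood apart: the mean of 12 glucose-repressed genes was 10.29 to 10.61 on them and 5.76 to 8.19 on the other 8. The replicate number held 42.3% of the within-group spread of the 40 genes and 65.7% of that of all tested probe sets. As a check of the strains, HTB2, which both lack, had signals of 5.44 to 6.07 beside 11.98 to 12.40 for HTB1. HTA2, which both lack too, had high signals of 11.29 to 11.76. Its probe set thus did not show the deletion, and the reason was not tested. The mean of 7 a-specific genes, which a MATa cell should express, was 8.25 to 10.13 on H2B WT arrays and 4.42 to 5.51 on R95A arrays. The part of these differences in the results below was not tested.

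Rapamycin lowered the messenger RNAs of 4 of the 7 Pol I-specific subunits in the mean of both strains. Of the 40 genes, 6 fell past the test, a Benjamini-Hochberg adjusted p under 0.05 over all 5498 probe sets in limma, beside 2.49% of all probe sets tested, and 0 rose, beside 0.146%. The 6 were RPA49, RPA34, RPA43 and RPA12, which belong to Pol I alone, and RPC40 and RPC19, which Pol I and Pol III share. All 23 subunits had negative values, with a median of -0.93 on the log2 scale, against 0.08 for all tested probe sets, of which 39.9% were negative, and 0.03 for the 16 initiation factors. At the study's threshold, an unadjusted p of at most 0.01 and at least a 2-fold change, 10 of the 40 were lower, beside 4.06% of all tested. The study applied it to p-values from cyber-T, whereas limma p-values were used here and below unless another fit is named. At an unadjusted p under 0.05 22 were lower, beside 10.8%, and TFC3 was higher, beside 7.35%. The 6 treated arrays lay below the 6 untreated ones for RPA49, RPA43, RPA14, RPC19, RPC17 and UAF30, beside 1.24% of all tested. The 6 calls were lost with the omission of any 1 of 8 arrays: replicates 1 and 2 of untreated H2B WT, 2 and 3 of treated H2B WT, 2 and 3 of untreated R95A, and 2 and 3 of treated R95A. The lowest adjusted p of the 40 was then 0.0689 to 0.111, with 19 to 21 genes lower at an unadjusted p under 0.05, and of all tested probe sets 0 to 4 were then lower past the test. In the same way 12 genes passed without replicate 3 of untreated H2B WT (5.29% of all tested lower), 14 without replicate 1 of treated H2B WT (4.51%), 16 lower genes and 1 higher without replicate 1 of untreated R95A (7.69% lower, 4.24% higher) and 7 without replicate 1 of treated R95A (1.71% lower). The share of all tested probe sets past the test thus moved with the omitted array too.

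**Figure D1:**
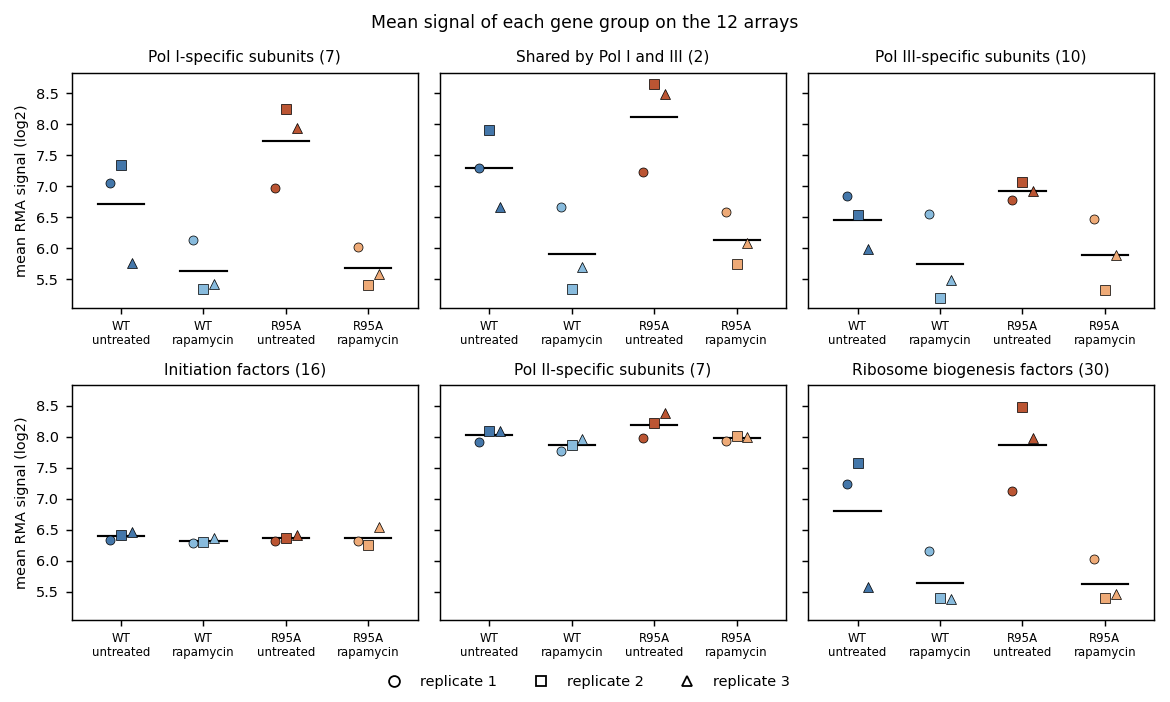
Mean RMA signal (log2, y axis) of 6 gene groups on each of the 12 arrays; points are arrays, shaped by replicate number, and lines are group means of 3. The Pol I-specific subunits, the subunits shared by Pol I and III and the Pol III-specific subunits sit lower in both treated groups, the 16 initiation factors lie between 6.25 and 6.54 on every array, and replicate 3 of untreated H2B WT is low among the untreated arrays for subunits and ribosome biogenesis factors.

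RPA49 and RPA34 encode a dimer that sits on Pol I like the general factor TFIIF on Pol II. RPA49 (probe set 1779813_at) had signals of 6.27, 7.22 and 5.30 in untreated H2B WT, 4.88, 4.49 and 4.90 in treated H2B WT, 6.07, 8.29 and 7.93 in untreated R95A, and 4.55, 4.47 and 4.87 in treated R95A, listed by replicate number here and below. Every treated array lay below every untreated one, and the fall over both strains was -2.15 ± 0.40 (SE, adjusted p = 0.0355, 6 against 6 arrays). RPA34 (1770485_at) had 7.01, 7.25 and 5.28 untreated and 5.58, 5.01 and 4.94 treated in H2B WT, and 7.0, 8.34 and 8.08 untreated and 5.49, 4.54 and 4.86 treated in R95A. Replicate 3 of untreated H2B WT fell among the treated values, and the change was -2.09 ± 0.36 (adjusted p = 0.0355).

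RPA43 and RPA14 encode the stalk of Pol I, and Rpa43 is the surface that Rrn3 binds. RPA43 (1776091_at) had signals of 5.53, 6.61 and 4.76 in untreated and 4.47, 3.95 and 4.42 in treated H2B WT, then 5.56, 7.42 and 6.96 in untreated and 4.37, 3.71 and 4.37 in treated R95A. The treated and untreated arrays did not overlap, and the fall was -1.92 ± 0.36 (adjusted p = 0.0355). RPA14 had a value of -0.64 ± 0.22 (adjusted p = 0.139), with a range of 8.17 to 8.63 untreated and 7.12 to 8.16 treated, also without overlap. RPA12 (1778487_at), whose product is needed for RNA cleavage by Pol I, had 5.74, 5.94 and 4.69 in untreated and 4.82, 3.26 and 3.40 in treated H2B WT, and 5.78, 6.62 and 7.18 in untreated and 4.76, 3.98 and 4.44 in treated R95A. Its fall was -1.88 ± 0.35 (adjusted p = 0.0355), and again only replicate 3 of untreated H2B WT lay below treated arrays, which were both numbered 1.

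The catalytic core of Pol I, made of the products of RPA190 and RPA135, did not pass the test. RPA190 had signals of 8.26, 8.23 and 5.68 in untreated and 7.67, 7.31 and 6.22 in treated H2B WT, and 7.83, 9.46 and 8.57 in untreated and 7.64, 7.80 and 5.82 in treated R95A. Replicate 3 of untreated H2B WT was the lowest of all 12, and the value over both strains was -0.93 ± 0.54 (adjusted p = 0.396). RPA190 and RPA43 are neighbours on opposite strands in the RefSeq annotation. RPA135 had 8.16, 7.99 and 6.33 in untreated and 7.42, 6.22 and 6.34 in treated H2B WT, and 8.02, 9.40 and 8.29 in untreated and 7.25, 6.29 and 6.57 in treated R95A, with a value of -1.35 ± 0.38 (adjusted p = 0.0844). The arrays of RPA135 did not overlap within R95A but did within H2B WT.

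RPC40 and RPC19 encode the assembly pair that Pol I and Pol III share. RPC40 (1773288_at) had signals of 7.40, 8.20 and 6.38 in untreated and 6.61, 5.50 and 5.64 in treated H2B WT, and 7.28, 9.08 and 8.52 in untreated and 6.49, 5.88 and 5.67 in treated R95A. It fell by 1.84 ± 0.38 on the log2 scale (adjusted p = 0.0355). RPC19 (1771542_at) had 7.21, 7.62 and 6.95 in untreated and 6.72, 5.18 and 5.75 in treated H2B WT, and 7.20, 8.23 and 8.46 in untreated and 6.67, 5.62 and 6.51 in treated R95A. It fell by 1.53 ± 0.32 (adjusted p = 0.0355) with no overlap between treated and untreated arrays. Of the 4 subunits common to Pol I, II and III, RPB5 had a value of -1.09 ± 0.27 (adjusted p = 0.0534), RPB8 -0.88, RPB10 -0.60 and RPC10 -0.59, and none passed. RPO26, the fifth common subunit and not among the 40, had -0.65 ± 0.17 (adjusted p = 0.0616).

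The 10 Pol III-specific subunits all had negative values, with a median of -0.80, and 0 passed the test in limma over both strains, although 8 were lower without adjustment (p under 0.05), and other fits called more: cyber-T 4 (6.86% of all tested lower), the fit with the replicate number as a block 7 (8.71%), array quality weights 9 (11.9%) and replicates 2 and 3 only 7 (7.75%). RPC31 had the largest, -1.63 ± 0.41 (adjusted p = 0.0623), with signals of 6.90, 6.71 and 5.43 in untreated and 6.17, 4.09 and 4.21 in treated H2B WT, and 6.64, 7.37 and 7.07 in untreated and 6.08, 4.58 and 5.23 in treated R95A. It encodes a part of the initiation trimer with RPC82 and RPC34, which had values of -0.68 and -0.89. RPC53 and RPC37, a dimer used in termination and reinitiation, had -1.21 ± 0.29 (adjusted p = 0.0529) and -0.93 ± 0.32. RPC17 of the Pol III stalk had the smallest adjusted p of the 10, just above the threshold, at -0.65 ± 0.15, with signals of 4.26 to 4.93 untreated and 3.66 to 4.23 treated and no overlap.

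The largest Pol III subunits had smaller values and a marked spread by replicate. RPO31, the largest subunit, had signals of 8.07, 7.44 and 6.54 in untreated and 8.04, 6.53 and 6.46 in treated H2B WT, and 7.97, 7.80 and 7.68 in untreated and 7.93, 6.63 and 6.97 in treated R95A, a value of -0.49 ± 0.35 (adjusted p = 0.504). RET1, the second largest, had 7.86, 8.19 and 6.59 in untreated and 7.85, 6.87 and 6.78 in treated H2B WT, and 7.81, 8.81 and 8.29 in untreated and 7.78, 7.07 and 6.65 in treated R95A, a value of -0.76 ± 0.33 (adjusted p = 0.251). In both genes the replicate 1 arrays hardly differed between treated and untreated cells of a strain. The median change of the 40 genes between arrays of the same number was smallest in replicate 1 (-0.18 in H2B WT and -0.27 in R95A) and largest in replicate 2 (-0.84 and -1.11).

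**Figure D2:**
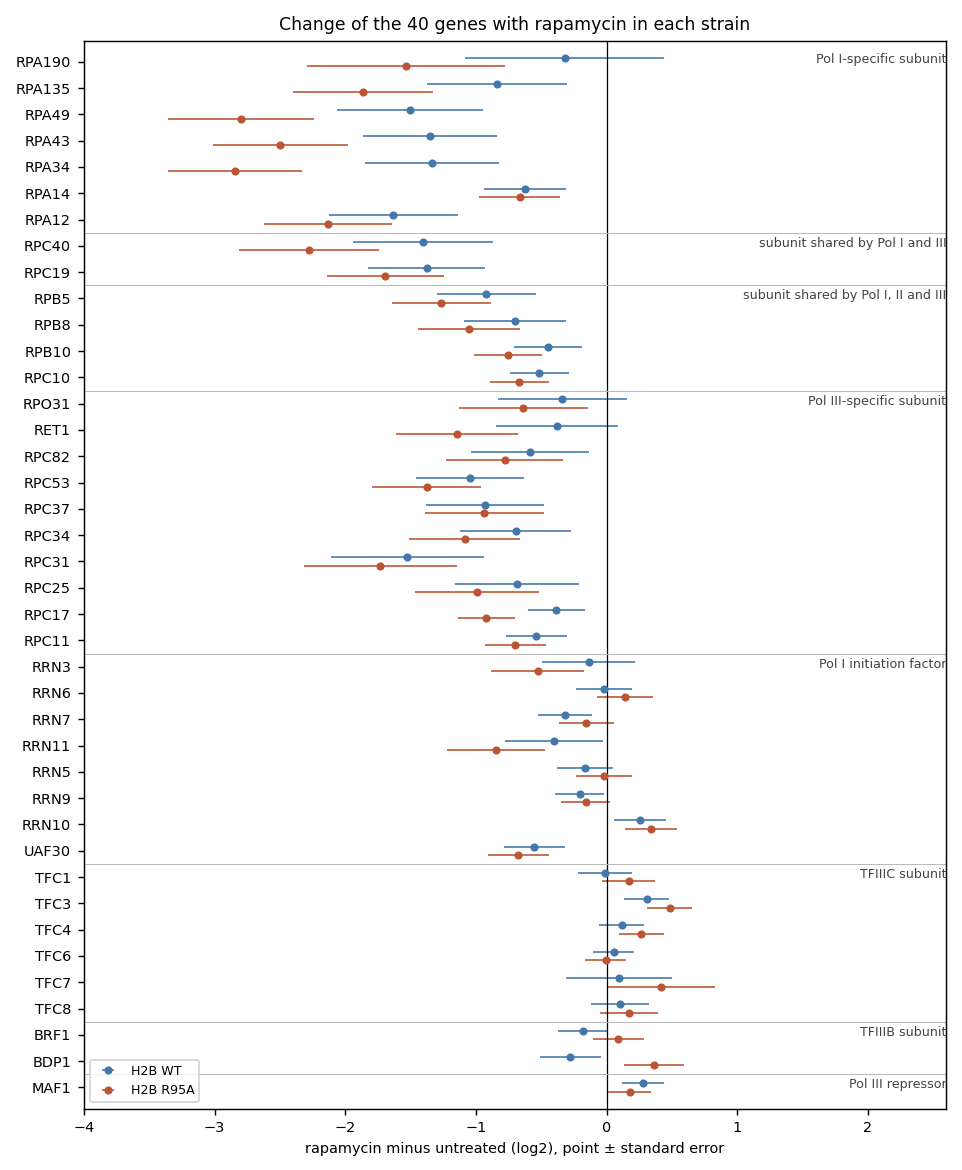
Change with rapamycin (log2, x axis) of each of the 40 genes in H2B WT and H2B R95A, with standard errors from the limma fit of 12 arrays; genes are grouped by role. All 23 subunits lie left of 0 in both strains, and the initiation factors lie between -0.85 and 0.48.

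**Figure D3:**
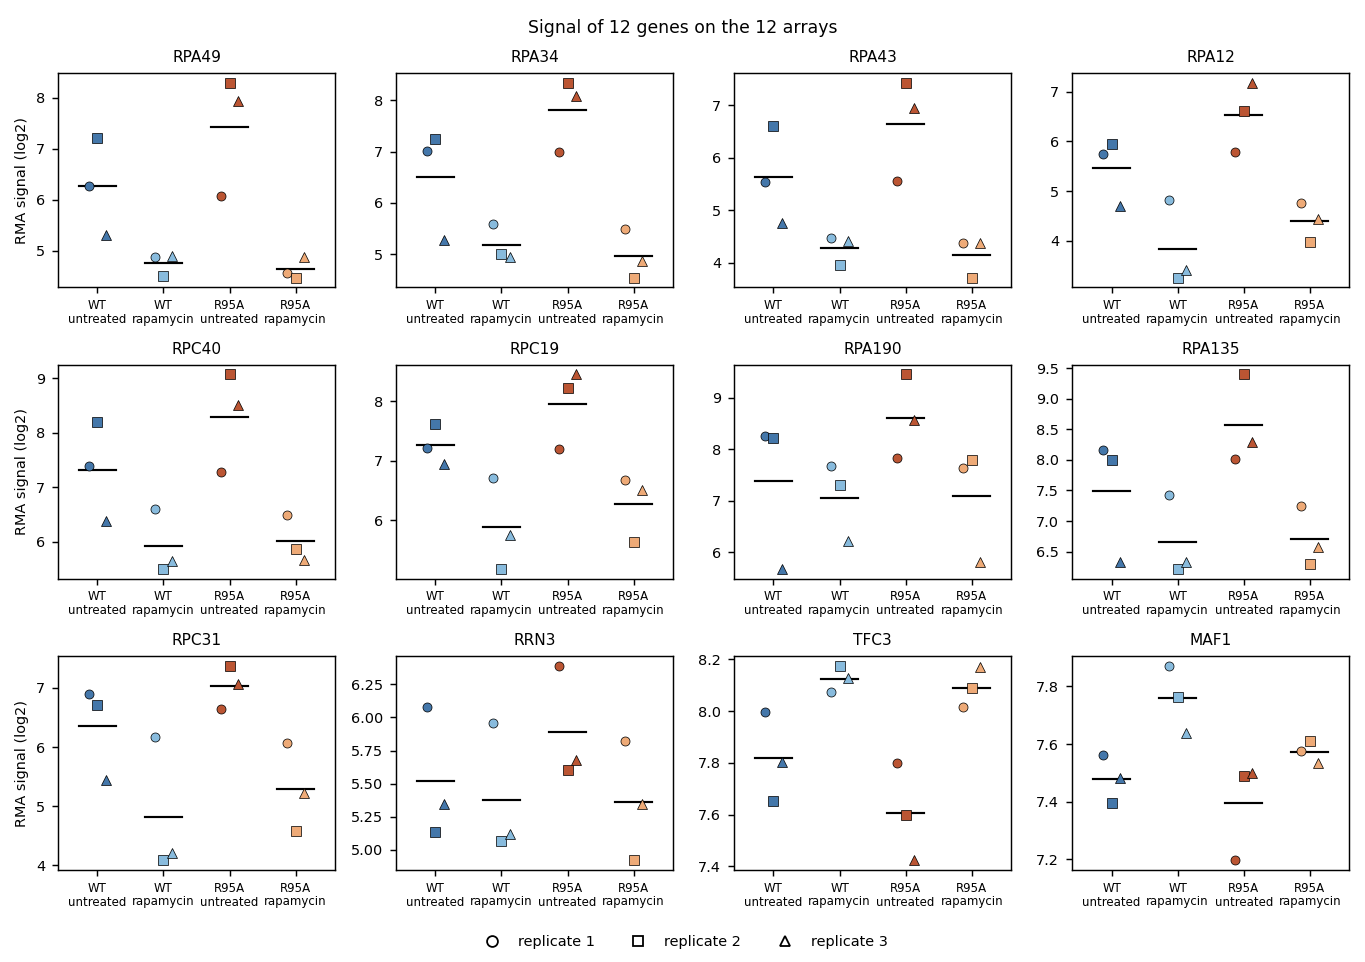
RMA signal (log2, y axis) of 12 genes on the 12 arrays; points are arrays, shaped by replicate number, and lines are group means of 3. Each panel has its own scale. RPA49, RPA43 and RPC19 show no overlap between treated and untreated arrays, TFC3 is higher on every treated array, and RPA190 overlaps through replicate 3 of untreated H2B WT.

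The initiation factors of Pol I did not move as a group. RRN3, whose product makes Pol I competent to start, had signals of 6.08, 5.13 and 5.34 in untreated and 5.96, 5.07 and 5.12 in treated H2B WT, and 6.39, 5.60 and 5.68 in untreated and 5.82, 4.92 and 5.34 in treated R95A. Each treated array was below the untreated array of the same strain and number, but the value over both strains was -0.33 ± 0.25 (adjusted p = 0.534). In the core factor, RRN6 had 0.06, RRN7 -0.24 and RRN11 -0.63. In the upstream activating factor, RRN5 had -0.09, RRN9 -0.18 and RRN10 0.30. UAF30 of the same factor, singled out after its values were seen, had -0.61 ± 0.17 (adjusted p = 0.0736), with signals of 4.67 to 5.20 untreated and 4.01 to 4.63 treated and no overlap.

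TFIIIC, the factor that reads the promoters inside tRNA genes, had positive values for all 6 of its subunits over both strains, beside 60.1% of all tested, and for 4 of 6 once arrays were centred on spiked-in RNA, which turned TFC1 and TFC6 negative. None passed the test. TFC3, which encodes a subunit that binds the B box and was singled out after its values were seen, had 8.0, 7.65 and 7.80 in untreated and 8.07, 8.18 and 8.13 in treated H2B WT, and 7.80, 7.60 and 7.42 in untreated and 8.01, 8.09 and 8.17 in treated R95A. Every treated array lay above every untreated one, which held for 0.691% of all tested probe sets, and the value was 0.40 ± 0.12 (adjusted p = 0.109). The other 5 had values of 0.02 to 0.26.

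TFIIIB places Pol III on its genes. BRF1 had signals of 7.72, 7.56 and 7.68 in untreated and 7.58, 7.41 and 7.42 in treated H2B WT, and 7.89, 7.66 and 7.31 in untreated and 7.75, 7.50 and 7.88 in treated R95A. Treated and untreated arrays overlapped in both strains, and the value over both strains was -0.05 ± 0.14 (adjusted p = 0.893). BDP1 had 0.04 ± 0.16. SPT15, which encodes the TATA-binding protein, the remaining TFIIIB subunit, and is not among the 40, had -0.19 ± 0.11 (adjusted p = 0.407). MAF1 had 7.56, 7.39 and 7.48 in untreated and 7.87, 7.76 and 7.64 in treated H2B WT, and 7.20, 7.49 and 7.50 in untreated and 7.58, 7.61 and 7.53 in treated R95A. Within each strain every treated array was above every untreated one, by means of 0.28 and 0.18, and over both strains the value was 0.23 ± 0.12 (adjusted p = 0.330).

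The 3 nuclear polymerases are built to 1 plan, so subunits at the same position can be compared within an array. A shift of all log2 signals of an array by the same amount then cancels. A scaling that depends on the signal level does not, and some partners lay at unlike levels. RPC17 had signals of 3.66 to 4.93 and RPB4 of 8.27 to 8.95. The 17 pairs were listed after the values were seen, a choice that an adjustment over the 17 does not cover. RPA43, RPA12, RPC40 and RPC19 had already passed the test over all probe sets on these arrays. The pairs therefore describe the same changes again and are no separate support for them. For each, the difference between the changes with rapamycin over both strains was tested with a two-sided exact permutation test of treatment within strains (400 regroupings, smallest p 0.005) and adjusted over the 17. At all 7 positions the subunit of Pol I, or of Pol I and III, had a more negative value than its Pol II partner. At 6 of them the difference passed: RPA135 against RPB2 by -1.36 ± 0.48, RPA43 against RPB7 by -1.91 ± 0.39, RPA14 against RPB4 by -0.74 ± 0.20, RPA12 against RPB9 by -1.29 ± 0.41, RPC40 against RPB3 by -1.16 ± 0.41 and RPC19 against RPB11 by -1.47 ± 0.31, with adjusted permutation p of 0.0213 to 0.0378. RPA190 against RPO21 gave -0.85 ± 0.48 (exact permutation p = 0.115, adjusted 0.150).

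Of the 5 pairs of a Pol III with a Pol II subunit, RPC17 against RPB4 passed, at -0.75 ± 0.15 (exact permutation p = 0.005, adjusted 0.0213), which RPA14 against RPB4 matched in size. RPC11 against RPB9 gave -0.03 ± 0.24 and the other 3 pairs -0.41 to -0.82, none of which passed. Between Pol I and Pol III, RPA135 had a more negative value than RET1 by -0.59 ± 0.16 and RPA12 than RPC11 by -1.26 ± 0.30 (adjusted permutation p of 0.0213 and 0.0283), RPA43 against RPC25 gave -1.09 ± 0.45 (adjusted 0.085), RPA190 against RPO31 gave -0.44 ± 0.52 (adjusted 0.459), and RPA14 against RPC17 gave 0.01 ± 0.15. Of the 7 Pol II-specific subunits RPB3 fell past the test over all probe sets (-0.68 ± 0.14, adjusted p = 0.0355), RPB9 had -0.59 ± 0.19 (adjusted p = 0.120), and the other 5 lay between -0.08 and 0.09.

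**Figure D4:**
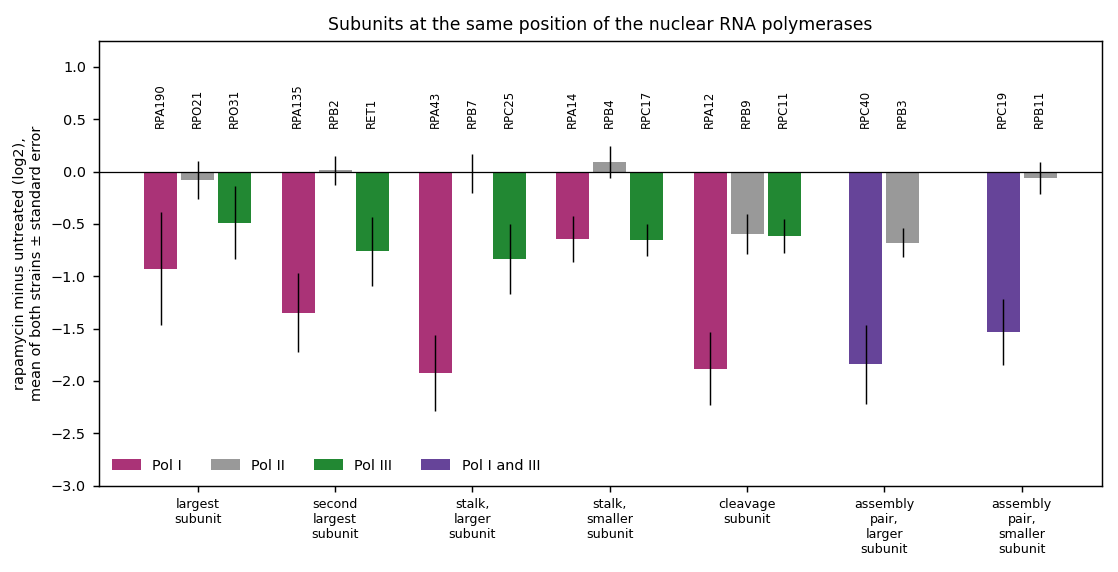
Change with rapamycin over both strains (log2, y axis, with standard errors from the limma fit) of subunits that hold the same position in Pol I, II and III; bars are coloured by polymerase and start at 0. The Pol II bars lie near 0 except RPB9 and RPB3, and RPA43, RPA12 and RPC40 reach below -1.8.

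In H2B WT alone 0 of the 40 genes passed the test with rapamycin, with limma or with cyber-T, as did 0 of all 5498 with limma. At an unadjusted p under 0.05, 12 were lower, beside 3.44% of all tested, and 0 higher, beside 0.837%. All 23 subunits had negative values, as did 43.7% of all tested, and 21 to 23 did with 1 array omitted. The median of the 40 was -0.43 against 0.04 for all tested. At the study's threshold 1 gene was lower, RPA12 at -1.63 ± 0.49 (adjusted p = 1.00), beside 0.382%. That count was 0 with the replicate number as a block, and also with any of 6 arrays omitted: replicates 1 and 2 of untreated H2B WT, 2 and 3 of treated H2B WT, 2 of untreated R95A and 3 of treated R95A. It was 6 when replicate 3 of the untreated H2B WT arrays was omitted, 4 for replicate 1 of treated H2B WT, 4 for replicate 1 of untreated R95A and 2 for replicate 2 of treated R95A. The share of all tested probe sets at this threshold is not given for these omissions. The shifts in the count are therefore not read as a trait of the 40 genes. The 3 treated arrays did not overlap the 3 untreated ones for 9 lower genes (3.73% of all tested) and 2 higher ones, MAF1 and TFC3 (3.97%).

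In R95A alone 0 of the 40 genes passed the test with limma, as did 0 of all tested, with a lowest adjusted p of 0.0941, and 9 passed with cyber-T, all lower, beside 4.40% of all tested. At an unadjusted p under 0.05, 19 were lower, beside 10.2% of all tested, and TFC3 was higher, beside 7.15%. All 23 subunits had negative values, as did 40.2% of all tested. At the study's threshold 9 were lower, beside 4.73%. These were RPA34 at -2.84 ± 0.51, RPA49 at -2.80 ± 0.56, RPA43 at -2.50 ± 0.51, RPC40, RPA12, RPA135, RPC19, RPC53 and RPB5, the last at -1.26 ± 0.38. Their count was 5 without replicate 2 of untreated R95A and also without replicate 2 of treated R95A, and the share of all tested at that threshold is not given for these omissions. Without replicate 1 of untreated R95A 11 genes passed the test itself, all lower, beside 7.88% lower and 5.27% higher of all tested. Without replicate 3 of untreated H2B WT 5 passed, all lower, beside 2.11% lower of all tested. The arrays did not overlap for 19 lower genes (9.37% of all tested) and for MAF1, TFC3 and TFC4, which were higher (8.51%). The median of the 40 was -0.73 against 0.10 for all tested.

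The responses of the 2 strains were compared through the interaction, the R95A response minus the H2B WT response. By arithmetic this is also the strain difference in treated cells minus that in untreated cells. Its estimates are thus not separate from the strain differences below. The interaction passed for 0 of the 40 genes and for 0 of all tested in limma, and 0 of the 40 had an unadjusted p under 0.05, beside 0.0546% higher and 0.0909% lower of all tested. Cyber-T called 0, with 2 of the 40 at an unadjusted p under 0.05. All 23 subunits had negative estimates, a more negative value in R95A, as did 44% of all tested, with a median of -0.34, and the Pol I-specific subunits had a median of -1.14, against 0.05 for all tested. RPA34 had the largest, -1.51 with a 95% interval of -3.10 to 0.08, and RPA49 had -1.29 with -3.03 to 0.45. These values moved with single arrays. Without replicate 3 of untreated H2B WT the Pol I-specific median was -0.45, RPA34 had -0.89, RPA49 had -0.81, and 20 of the 23 subunits were negative, RPC31, RPO31 and RPC37 being positive. The Pol I-specific median was -0.76 without replicate 2 of untreated R95A. Negative subunits numbered 13 of 23 without replicate 1 of treated H2B WT and 14 without replicate 2 of treated R95A, and 20 to 23 with any other array omitted. Among the initiation factors BDP1 had 0.64 with -0.08 to 1.36. BDP1 had signals of 7.40, 7.86 and 8.01 in untreated and 7.21, 7.63 and 7.58 in treated H2B WT, and 7.37, 7.59 and 7.12 in untreated and 7.59, 7.55 and 8.02 in treated R95A, so it was lower on each treated H2B WT array than on the untreated array of its number, and higher on replicates 1 and 3 in R95A.

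Between the untreated strains 0 of the 40 genes passed the test with limma or cyber-T, beside 0.0364% higher and 0.364% lower of all tested, and 2 were higher in R95A at an unadjusted p under 0.05, RPA34 at 1.30 ± 0.51 and RPC17 at 0.53 ± 0.22 (adjusted p of 0.733 for each), beside 1.76% of all tested. All 23 subunits had positive values, as did 45.2% of all tested, and 22 of 23 did with spike-in centring, where RPA14 was negative. Their median was 0.47, that of the Pol I-specific subunits 1.07 and that of the initiation factors -0.06, against -0.04 for all tested. The Pol I-specific values were 1.23 for RPA190, 1.17 for RPA49, 1.07 for RPA135, 1.07 for RPA12, 1.01 for RPA43 and 0.16 for RPA14 beside that of RPA34. These values move with 1 array: the mean of the 7 Pol I-specific subunits was 7.05, 7.34 and 5.77 in untreated H2B WT and 6.98, 8.24 and 7.95 in untreated R95A, and the replicate 1 arrays of both strains were close to each other. The same arrays were low or high for the 30 ribosome biogenesis factors, with means of 7.24, 7.58 and 5.58 in H2B WT and 7.12, 8.48 and 7.98 in R95A. With replicate 3 of untreated H2B WT left out, the median of the 40 went from 0.34 to 0.17 and that of the Pol I-specific subunits to 0.58. The R95A arrays did not overlap the H2B WT arrays for RPC17 and RPC37, both higher, beside 2.69% of all tested.

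Between the treated strains the 40 genes lay close together. Beside 0.0364% higher and 0.309% lower of all tested, 0 passed the test in limma, 0 in cyber-T, and 0 had an unadjusted p under 0.05, beside 0.2% higher and 1.31% lower of all tested. Values ran from -0.21 for RPA34 to 0.57 ± 0.49 for RPA12, with a median of 0.06 against 0.02 for all tested, and spike-in centring, which moved the median of all tested by -0.37, took that of the 40 to -0.30. The mean signal of the 40 was 6.54, 5.99 and 6.11 in treated H2B WT and 6.48, 6.03 and 6.35 in treated R95A, against 6.86, 6.94 and 6.43 in untreated H2B WT and 6.81, 7.28 and 7.20 in untreated R95A. The arrays did not overlap for 3 genes lower in R95A, RRN9, MAF1 and RPB8, beside 2.75% of all tested. The 95% interval of RPA49 was -1.36 to 1.10 and that of MAF1 -0.55 to 0.18, so a 2-fold difference in MAF1 lay outside its interval and one in RPA49 did not.

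**Figure D5:**
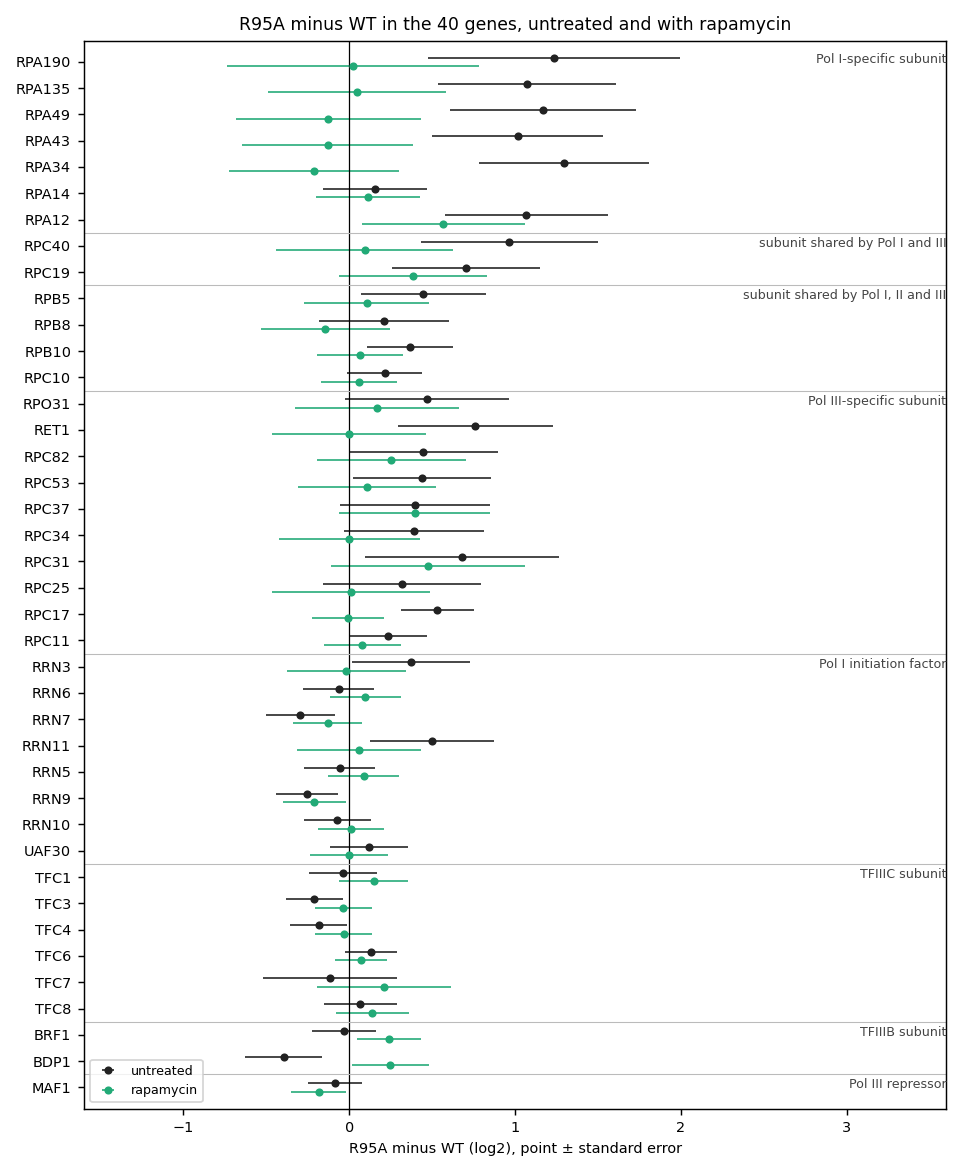
R95A minus H2B WT (log2, x axis) for each of the 40 genes, untreated and with rapamycin, with standard errors from the limma fit of 12 arrays. Untreated subunit values lie to the right of 0, at 1.01 to 1.30 for 6 of the 7 Pol I-specific subunits, and treated values lie between -0.21 and 0.57.

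Other genes of the same pathway were counted from lists. Of 30 ribosome biogenesis factors, which make and assemble ribosomes with the products of Pol I and III, 19 fell past the test over both strains, beside the 2.49% of all tested given above, and the median was -1.67, led by MAK16 (-2.67 ± 0.44, adjusted p = 0.0355) and RPF2 (-2.44 ± 0.49, adjusted p = 0.0355). With 1 array omitted, 0 or 1 of the 30 passed for the same 8 arrays whose omission left none of the 40 past the test, and 13 to 26 for the other 4. The study had already listed ribosome biogenesis genes, MAK16 and RPF2 among them, as lower with rapamycin on these arrays. The list of 30 was chosen with earlier results of these data known, so its 19 calls are no separate support. Of 4 genes for regulators that bind the PAC and RRPE promoter elements of such genes, none passed, TOD6 having -0.60 (adjusted p = 0.192) and DOT6 0.27 (adjusted p = 0.683), which encode paralogous repressors. Of 12 genes for the kinases, phosphatases and exporter that act on Maf1, none passed, and the largest values belonged to TPK3 (-0.85 ± 0.28, adjusted p = 0.127) and TPK2 (0.50 ± 0.18, adjusted p = 0.164), which encode catalytic subunits of protein kinase A. Of 7 other Pol I and III transcription genes, RPO26 and SPT15 among them, none passed, and 1 was lower at an unadjusted p under 0.05.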

How the data were processed

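The authors read the array scans into FlexArray 1.6.3 and applied RMA (background correction, quantile normalization), and the deposited values are log2 signals per probe set in 1 table. No column was left unmapped (0), and no arrays were identical (0 pairs). Probe sets annotated with a single S. cerevisiae gene were tested, 5498 of 10928, with R 4.3.3 and limma 3.58.1: a mean per group over 12 arrays, contrasts for 6 comparisons, and eBayes with a trend. Adjustment was Benjamini-Hochberg over all 5498, and percentages of all tested use the same call. The members and lists were chosen with earlier results of these data known. All 40 members could be named, with values in every array for 7 fixed genes and the 6 further members with the largest change in each comparison. Of each list up to 2 genes could be named, and the genes paired by position were chosen later. Replicate numbers were read as marking pairs where all 3 correlations of deviations from group means were over 0.1. This held between treated strains (0.88, 0.78, 0.74) and with rapamycin in H2B WT (0.84, 0.41, 0.77). It did not hold between untreated strains (0.57, 0.83, 0.06) or with rapamycin in R95A (0.42, 0.48, 0.01). The main fit and the permutation test left the number out of every comparison, also where it marked pairs. Only the replicate block used it as a covariate. Alternatives were cyber-T (window 101, confidence 10), other scalings, filters and fits, a replicate block, replicates 2 and 3 only, and leaving out each array. Spike-in centring used 12 poly-A probe sets. The fits were tested on simulated data with independent normal noise and no effect of the replicate number, unlike these arrays. That test does not show how the fits behave with such an effect. Probe sets for Schizosaccharomyces pombe, for controls and with several or no annotated genes stayed out of the tests, and no promoter or protein sequence is shown.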

Additional observations from a re-analysis of the deposited data

How the results depend on the processing

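Of the 40 genes, the numbers past the test or the study's threshold depended on the setting far more than the directions did. For rapamycin over both strains (6 past the test), 13 passed with cyber-T, beside 6.86% of all tested lower and 1.27% higher. Array quality weights gave 23 (22 lower and 1 higher), beside 11.9% and 9.37%. The replicate number as a block gave 21 (20 lower, 1 higher), beside 8.71% and 5.02%. Replicates 2 and 3 only gave 20 (19 lower, 1 higher), beside 7.75% and 4.87%. Spike-in centring gave 1, RPA34, beside 0.236% lower. Over all tested probe sets the number lower ran from 0 to 653 across the same settings and omissions. For rapamycin in R95A (0 past), 9 passed with cyber-T, all lower, beside 4.40% of all tested lower and 0.236% higher. Array quality weights gave 19 (18 lower, 1 higher), beside 10.6% and 8.17%. Replicates 2 and 3 only gave 14, all lower, beside 7.22% and 5.75%. At the study's threshold (9) the counts were 14 with array quality weights and 14 with replicates 2 and 3 only. In H2B WT given rapamycin, where 1 met the study's threshold, the numbers were 7 with cyber-T, 10 with array quality weights, 2 with median centring, 2 with quantile normalization over the tested probe sets, 3 with replicates 2 and 3 only, and 0 with spike-in centring, with a fit of the 6 arrays compared and with the replicate block. Between untreated strains at that threshold (0), counts were 1 with cyber-T, 3 with array quality weights and 1 with replicates 2 and 3 only, and for the interaction (0) 1 with array quality weights. Leaving out 1 array at a time gave 0 to 17 past the test for rapamycin over both strains, beside 0 to 7.69% of all tested lower. In R95A it gave 0 to 11, beside 0 to 7.88% lower. At the study's threshold it gave 0 to 6 in H2B WT, 5 to 11 in R95A, 0 to 3 between untreated strains and 0 to 1 for the interaction. For the counts at the study's threshold, the share of all tested probe sets under each setting or omission is not given here. Shifts in those counts are therefore not read as a trait of the 40 genes. The causes were not tested.

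With arrays centred on spike-ins the median of all tested shifted by -0.19 to -0.04 in the comparisons other than treated strains (-0.37) and rapamycin in R95A (-0.22), and the median of the 40 between treated strains became -0.30. Over both strains with rapamycin this gave RRN6 -0.068, TFC1 -0.054, TFC6 -0.11 and BDP1 -0.088, all positive otherwise. Quantile normalization gave RRN5 0.015 and replicates 2 and 3 only gave BRF1 0.00059, both negative otherwise. Leaving out 1 array gave RRN6 -0.011 to 0.14, TFC6 -0.0039 to 0.050, BRF1 -0.12 to 0.021 and BDP1 -0.046 to 0.11. Of all 2560 values of the 40 genes under the other settings, 76 had the opposite sign, and of 2880 with 1 array left out 154 did, the lowest adjusted p of these being 0.82. The replicate block changed no other call of a comparison it paired. Between untreated strains and with rapamycin in R95A, replicates 1 and 2 had correlations over 0.1 and replicate 3 did not. In these comparisons the block moved no count of the 40 past the test. The fit of the 6 arrays was not run over both strains or for the interaction, which need all 12.

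With 3 arrays a group, an exact permutation test of 1 gene could not go below 0.1. Messenger RNA is not protein, and 30 min of rapamycin is the only treated time. Replicate 3 of untreated H2B WT was low for most Pol I genes, and what the replicate numbers stand for is not given in the sources used here.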

Other observations

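The arrays carry control probe sets for ribosomal RNA, the product of Pol I and III, although the labelling kit primes on poly-A tails. The 25S probe set had 11.72, 10.97 and 9.47 in untreated and 11.09, 11.25 and 9.86 in treated H2B WT, and 11.43, 11.75 and 10.67 in untreated and 11.26, 11.33 and 10.81 in treated R95A, so replicate 3 was the lowest array in each group. The 5.8S probe set had 8.14, 8.54 and 7.11 in untreated and 6.49, 8.73 and 6.67 in treated H2B WT, and 8.03, 9.70 and 8.40 in untreated and 7.51, 8.70 and 7.51 in treated R95A. The treated and untreated arrays overlapped in both strains, and these values were not tested.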
